A study of Homo sapiens with 2 samples.

Results

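Olfactory receptor genes were taken from the list of PAX-8 ChIP peaks in foam cells by their symbols alone: the letters OR, a number, letters and a number, without the final P that marks a pseudogene. Of 45360 unique peaks in the list, 178 (0.392%) were assigned to such a symbol, and they covered 123 olfactory receptor symbols of 15736 symbols in all, on 15 chromosomes. Another 13 peaks belonged to olfactory receptor pseudogenes and were kept apart. The study used THP-1, a human monocytic leukemia cell line. The cells were turned into macrophages with 160 nmol/L PMA, a phorbol ester, for 24 h. They were then loaded with ox-LDL, the modified lipoprotein that makes them foam cells, for 48 h, and treated with C18-3OH, a hydroxylated fatty acid. The 2 libraries, 1 PAX-8 ChIP and 1 Input of the same cells, share all of these treatments. With 1 library of each kind there are no replicates, so no value below carries a test. Intervals are 95% intervals (Wilson for shares, exact Poisson for densities and rank-based for medians) and cover counting error only.

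Olfactory receptors are G protein-coupled receptors that bind odorants on the cilia of sensory neurons in the nose. Each mature neuron uses 1 allele of 1 receptor gene, and the other receptor genes of that cell are kept in closed chromatin. The genes lie in clusters and have a single coding exon. Class I receptors (families 51 to 56) sit together on chromosome 11, and class II receptors (families 1 to 14) are spread over many chromosomes. Most are not used outside the nose, although a few have been described in other tissues, OR6A2 in macrophages among them. PAX-8 is a paired-box transcription factor best known from thyroid and kidney. Whether the genes were silent in these foam cells could not be checked, since only ChIP peaks were analysed.

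The start sites behind the list matter for every distance below, so RefSeq sequence around start sites of some of these genes is printed first. The windows use the start sites of GRCh38.p14 models, which can differ from the listed hg19 start sites. Distances below are to the listed start sites. Of 126 olfactory receptor transcripts in the list, 102 (81.0%) were shorter than 1200 bp, and their length was a multiple of 3 in 95 (75.4%), against 33.7% of all 34385 listed transcripts. Their median length was 960 bp, against 37117 bp over all. Lengths here are genomic spans between the listed start and end sites, introns included. For spliced transcripts a multiple of 3 therefore says nothing about the coding sequence. In the RefSeq windows of 300 bases (build GRCh38.p14, 250 before and 50 from the start site), 130 of 324 olfactory receptor windows (40.1%) carried an ATG exactly at the start site, against 2.29% of all 35116 windows. For such models the start site is that of the coding sequence. The windows of 4 genes with a peak in the promoter class are of this kind, and the ATG at the start site is in capitals. They lie on the minus strand at chr5:180740009-180740308 (OR2Y1), chr19:14800087-14800386 (OR7C1), chr9:104527160-104527459 (OR13C4) and chr9:122477877-122478176 (OR1J1).
OR2Y1: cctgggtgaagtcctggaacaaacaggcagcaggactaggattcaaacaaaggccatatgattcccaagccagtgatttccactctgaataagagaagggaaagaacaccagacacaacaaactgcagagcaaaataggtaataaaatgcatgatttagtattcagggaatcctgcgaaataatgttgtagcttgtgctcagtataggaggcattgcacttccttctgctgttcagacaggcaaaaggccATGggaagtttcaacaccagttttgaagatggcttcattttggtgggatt
OR7C1: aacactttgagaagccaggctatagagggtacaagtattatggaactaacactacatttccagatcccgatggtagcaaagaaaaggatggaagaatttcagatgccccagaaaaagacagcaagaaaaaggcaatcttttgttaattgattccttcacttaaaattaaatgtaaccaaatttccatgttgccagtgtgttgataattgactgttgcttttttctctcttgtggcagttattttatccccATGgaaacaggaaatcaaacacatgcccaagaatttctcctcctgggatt
OR13C4: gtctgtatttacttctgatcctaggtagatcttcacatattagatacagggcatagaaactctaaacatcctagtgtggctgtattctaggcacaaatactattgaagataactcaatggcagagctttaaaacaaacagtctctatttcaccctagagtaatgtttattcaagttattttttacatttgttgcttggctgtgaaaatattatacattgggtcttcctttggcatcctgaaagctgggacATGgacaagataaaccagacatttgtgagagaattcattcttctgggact
OR1J1: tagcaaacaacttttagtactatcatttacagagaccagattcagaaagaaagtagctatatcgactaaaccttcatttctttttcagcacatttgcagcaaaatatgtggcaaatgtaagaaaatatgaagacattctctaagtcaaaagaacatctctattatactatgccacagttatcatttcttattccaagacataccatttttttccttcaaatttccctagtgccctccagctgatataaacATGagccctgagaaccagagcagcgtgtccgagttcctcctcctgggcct

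The window of a longer OR7C1 transcript (chr19:14835136-14835435, minus strand) and that of OR10H1 (chr19:15815615-15815914, minus strand) are shown because they held a match to GCNTGAC, letters of the site that PAX paired domains bind. The match is in capitals, and in OR10H1 it reads on the opposite strand.
OR7C1: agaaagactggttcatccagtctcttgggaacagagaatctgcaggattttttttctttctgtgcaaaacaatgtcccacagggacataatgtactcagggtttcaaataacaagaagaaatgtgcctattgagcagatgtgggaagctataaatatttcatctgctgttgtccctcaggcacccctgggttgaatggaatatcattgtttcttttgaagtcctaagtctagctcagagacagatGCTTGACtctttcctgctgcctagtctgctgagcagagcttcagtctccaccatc
OR10H1: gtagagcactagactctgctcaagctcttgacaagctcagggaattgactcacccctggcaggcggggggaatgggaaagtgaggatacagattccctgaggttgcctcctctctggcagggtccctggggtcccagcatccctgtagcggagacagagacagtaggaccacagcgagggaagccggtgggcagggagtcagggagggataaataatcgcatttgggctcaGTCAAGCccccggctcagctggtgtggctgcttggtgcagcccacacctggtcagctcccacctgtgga

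Both strands of all windows were searched for GCNTGAC and for GTCACGC. The second is a form of the first on the opposite strand, so each of its matches counts for both. GCNTGAC was found in 18 of 324 olfactory receptor windows (5.56%), against 10.5% of all 35116 windows, and its GTCACGC form in 1 (0.309%), against 2.52%. The olfactory receptor windows had a median GC content of 37.7% (quartiles 33.9 to 43.1%), against 58.7% (47.0 to 68.0%) over all windows, so both sets differed in base composition as well as in matches. A match is a description of letters and not a binding site. These windows are in another build than the peaks, which are in hg19, and no peak was placed on them.

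Compared to other protein-coding genes, fewer olfactory receptor genes had a peak. Of 390 protein-coding olfactory receptor genes in the gene table, 118 (30.3%, interval 25.9 to 35.0%) had at least 1 assigned peak, whereas 54.9% of all 20037 protein-coding genes had one. Without the receptors, the share was 10876 of 19647 (55.4%, 54.7 to 56.1%). A promoter-class peak was assigned to 13 receptor genes (3.33%, 1.96 to 5.62%), against 13.4% of all protein-coding genes. Since the start site of many receptor models may be that of the coding sequence, this class can mark unlike places in receptors and other genes. The genes were not matched for length or for the distance to their neighbours, and the part of both in this gap was not tested. How many genes of either set the annotation behind the list held was not tested either. The 5 further symbols with a peak, OR10J3, OR10AC1, OR51H1, OR4C45 and OR4F4, were not protein-coding in the gene table.

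The gap differed in size between chromosomes. On chromosome 11, which holds 171 of the 390 genes, 49 receptor genes had a peak (28.7%, 22.4 to 35.8%), against 53.4% (50.4 to 56.3%) of the other protein-coding genes there. On chromosome 1 it was 16 of 61 (26.2%), against 61.8% of the others. None of the 17 receptor genes on chromosome 6 had a peak, which allows a share of up to 18.4%, against 52.6% of the others. On chromosome 7, 2 of 15 receptor genes (13.3%) had a peak, against 62.1% of the others. In contrast, chromosome 19 had 11 of 20 (55.0%, 34.2 to 74.2%), against 48.3% of the others, and chromosome 3 had 6 of 10 (60.0%), against 62.0%. On both of these the intervals overlapped those of the other genes. They also overlapped on chromosome 14, with 10 of 24 (41.7%, 24.5 to 61.2%), against 59.0% (55.0 to 63.0%) of the others, and on chromosome 17, with 3 of 13 (23.1%, 8.18 to 50.3%), against 42.0% (39.2 to 44.9%).

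**Figure D1:**
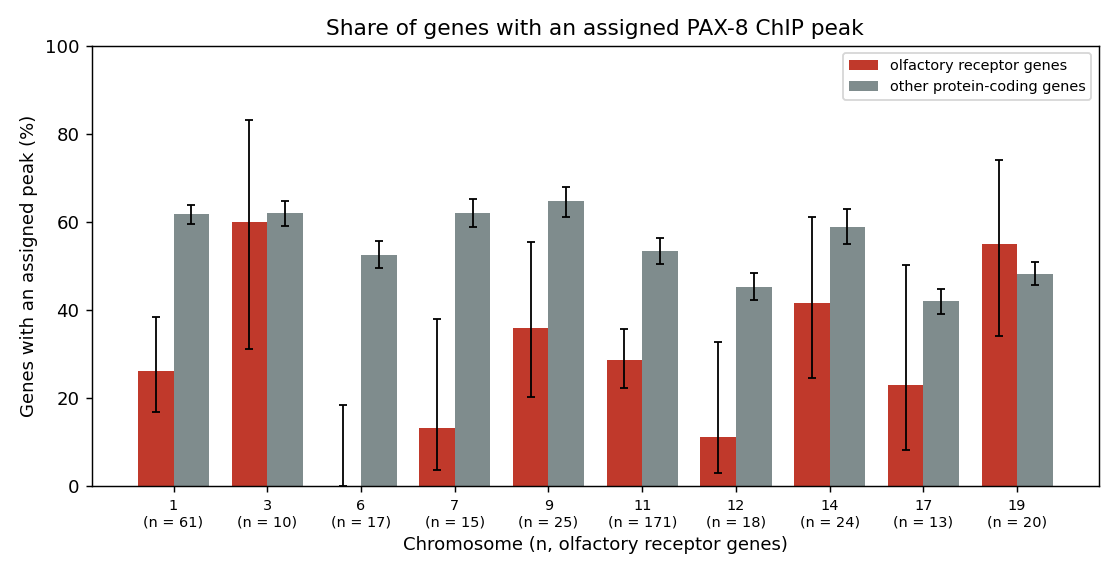
Share of genes with an assigned PAX-8 peak (%) by chromosome, for olfactory receptor genes (red) and other protein-coding genes (grey), on chromosomes with 10 or more receptor genes; bars start at 0 and lines are Wilson 95% intervals. The red bars are the shorter ones on 9 of 10 chromosomes, chromosome 6 has none, and on chromosome 19 the red bar is the taller.

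The peaks themselves looked like the rest of the list. The listed fold enrichment, a ratio over background whose definition is not stated, had a median of 7.09 in receptor peaks (interval 6.77 to 7.35, range 4.02 to 11.48), against 7.35 over all peaks. The median number of tags, the ChIP reads counted in a peak, was 14 in receptor peaks (quartiles 12 to 17), and also 14 over all peaks. Between 11 and 20 tags were counted in 155 receptor peaks (87.1%), against 88.2% of all. The median peak was 589 bp long, against 590 bp. A fold of at least 8 was listed for 55 receptor peaks (30.9%), against 35.0% of all, and a fold of at least 10 for 6 (3.37%), against 4.63%. An FDR of at most 0.2% was listed for 141 (79.2%), against 79.7%. These shares all lay within the counting interval of the receptor peaks.

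The values were coarse. Of the receptor peaks, 99 (55.6%) carried 1 of the 8 fold values that occurred most often in the list, against 57.7% of all peaks. Since the list gives the tags and a p-value score for each peak, the background that would give that score (the mean of a Poisson count) was computed. For 100 receptor peaks (56.2%) it lay within 1% of a single value, 5.94 tags per kb, against 55.7% of all peaks. The tags were a median of 3.654 times this background in receptor peaks, against 3.653 times over all. At 14 tags a single read changes a value by several percent, so differences in fold between single peaks of this size cannot be ranked.

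**Figure D2:**
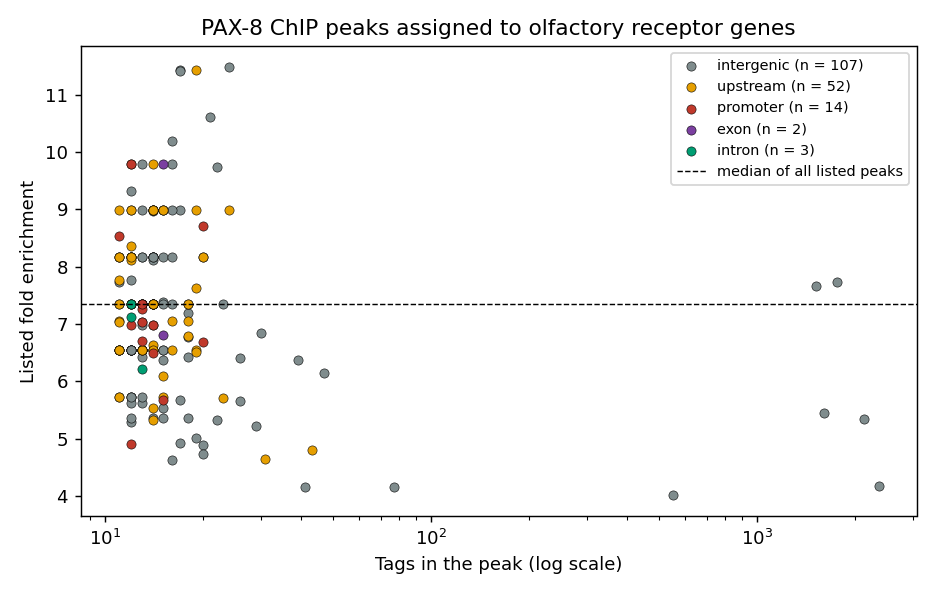
Listed fold enrichment against the number of tags (log scale) for the 178 receptor peaks, coloured by class; the dashed line is the median of all listed peaks, 7.35. Most points lie in rows at repeated fold values between 11 and 20 tags, and 6 points with 551 to 2359 tags stand apart on the right, all assigned to OR4C46.

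With respect to position, receptor peaks lay outside genes more often than the list as a whole. Intergenic peaks numbered 107 (60.1%, 52.8 to 67.0%), against 38.7% of all, and upstream peaks, 2 to 20 kb before the start site, numbered 52 (29.2%, 23.0 to 36.3%), against 16.6%. Only 3 peaks (1.69%) were intronic, against 34.9% of all, and 2 (1.12%) exonic, against 2.24%. The promoter class, within 2 kb of the start site, held 14 peaks (7.87%, 4.74 to 12.8%), against 7.48% of all. The share of peaks near a listed start site was thus close to that of the list. For many receptor models this site may be the start of the coding sequence, so the class can mark unlike places in receptors and other genes. The genes themselves are short, as given above. The median distance to the listed start site was 16.89 kb for receptor peaks, against 36.23 kb over all, and 100 receptor peaks were within 20 kb and 163 within 100 kb. The upstream side held 103 of 178 (57.9%, 50.5 to 64.9%), the distant peaks of OR11H12 and OR4E1 among them. A listed receptor transcript was overlapped by 12 peaks, and 4 covered a listed start site. For the upstream side, the distance limits and the overlaps, the shares over all listed peaks were not computed.

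**Figure D3:**
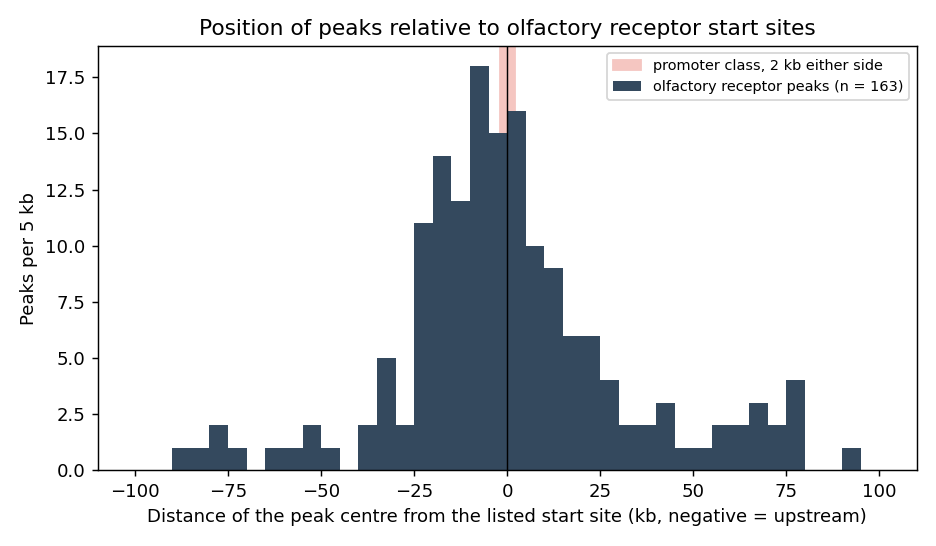
Number of receptor peaks per 5 kb by the distance of the peak centre from the listed start site (kb, negative is upstream), for the 163 peaks within 100 kb; the pink band marks the promoter class. The counts are highest within 25 kb on both sides. The bins on either side of the start site are nearly as high as the highest bin, which is the next one upstream. The first bin downstream stands above the next one downstream.

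The 4 peaks that covered a listed start site belonged to OR51B6, OR7C1, OR6P1 and OR8B4. OR51B6, a class I receptor near the beta-globin genes, had a peak of 20 tags and a fold of 8.72 at chr11:5372466-5373166, centred 78 bp inside its transcript. OR8B4 had 15 tags and a fold of 5.68 at chr11:124294554-124295087, centred 53 bp before its start. OR6P1 had 20 tags and a fold of 6.68 at chr1:158532783-158533595, centred 206 bp inside its transcript. OR7C1 had 13 tags and a fold of 6.71 at chr19:14910401-14910956, centred 270 bp inside the short transcript, whose start site is the ATG shown above. A second OR7C1 peak of 13 tags and a fold of 6.21 (chr19:14936308-14936755) fell in an intron of the longer transcript. By fold, OR51B6 alone among these peaks lay above the median of the list.

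OR2Y1 had the highest listed fold in the promoter class, 9.80 with 12 tags at chr5:180166543-180166888, within its coding exon. OR2V1, its neighbour on chromosome 5, had 14 tags and a fold of 6.49, centred 1179 bp before its listed start. OR13C4 followed OR51B6 with a fold of 8.54 but 11 tags, the smallest count in the list. The other promoter-class peaks, at OR52B4, OR52E4, OR10G8, OR2Z1, OR10H1, OR10AC1 and OR1J1, had 12 to 14 tags and folds of 4.90 to 7.35. Exonic peaks were listed for OR51H1 (15 tags, fold 9.80) and OR10J1 (15 tags, fold 6.81). The 2 remaining intronic peaks belonged to OR9Q1 (12 tags, fold 7.35) and OR4C45 (12 tags, fold 7.12). None of these peaks had more than 20 tags. The receptors' odorants are mostly unknown, and no role is given here for genes whose ligand is not settled.

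The receptor peaks with the highest listed folds had 12 to 24 tags, so their order among themselves is not resolved. An OR11H1 peak had a fold of 11.48 and 24 tags, and 379 peaks of the whole list had a higher fold. OR7D4, a receptor for the steroid androstenone, and OR1S2 each had a peak with a fold of 11.44, on 19 and 17 tags. The OR7D4 peak lay 4.366 kb upstream of its start, and the OR1S2 peak 4.078 kb downstream. An OR4E1 peak with a fold of 11.41 and 17 tags lay 298.7 kb from its gene, and an OR9Q1 peak with 10.62 and 21 tags lay 79.6 kb upstream. An OR5K3 peak had 10.2 on 16 tags. Below these 6 came 6 peaks tied at a fold of 9.80, at OR11H4, OR51H1, OR2AT4, OR10G2, OR10A3 and OR2Y1, on 12 to 16 tags, and the OR2Y1 peak was the promoter-class peak given above.

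Most receptor genes with a peak had only 1. This held for 89 of 123 genes, while 21 had 2, 6 had 3 and 4 had 4. The same counts over all listed symbols were not computed, so this is not shown to be particular to receptors. OR4C46 had 8 peaks, OR11H1 had 7 and OR9Q1 had 6. The genes with 4 were OR11H12, OR2Z1, OR4A47 and OR6J1.

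OR4C46 stood apart by its tags. Its 8 peaks, in order along chr11:51525754-51591398, had 14, 47, 2359, 1603, 551, 1522, 1755 and 2134 tags. The listed folds of these peaks were 8.98, 6.15, 4.17, 5.45, 4.02, 7.67, 7.73 and 5.34. In the same order, the listed FDR was 0.21, 0.17, 3.57, 0.26, 2.08, 2.94, 0 and 0%, against a median of 0.16% over all peaks. The last 6 peaks lay within 12.6 kb and held 78.5% of all tags in receptor peaks. Their inferred background was 59.1 to 140 times the genome-wide value. Their tags were only 1.14 to 1.98 times that local background. They were all the receptor peaks with 100 or more tags, 6 of 178 (3.37%), against 0.41% of the list. The largest count among the other receptor peaks was 77. After these peaks came 3.207 Mb without any peak (chr11:51591398-54798306), the stretch in which the centromere of chromosome 11 lies. Without the 6 peaks, the median fold of receptor peaks was 7.16.

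Other genes with many peaks had them at long distances. The 7 OR11H1 peaks, on chromosome 22, had 12 to 39 tags and folds of 5.72 to 11.48, and each lay more than 60 kb from the gene. The 4 OR11H12 peaks on chromosome 14 lay 184 to 324 kb upstream, with 14 to 41 tags and folds of 4.16 to 6.54. The 3 OR4E1 peaks lay 298.7 to 377.6 kb upstream, on the side of the T cell receptor alpha locus. Such peaks are receptor peaks by assignment only. OR9Q1 had the longest receptor transcript in the list, 157732 bp, but only 1 of its 6 peaks overlapped it. The other 5 lay 31.32 to 103 kb upstream, and the 6 peaks had 12 to 21 tags. Near-identical copies are uncertain: 3 peaks were listed for OR4F16, OR4F29 and OR4F3 together, 2 on chromosome 1 and 1 on chromosome 5. One peak was shared by OR8U1 and OR8U8 and another by OR11H2 and OR4Q3.

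The 123 symbols formed 30 genomic clusters when start sites up to 1 Mb apart were joined, and 9 of these held a single listed receptor gene. The 5 clusters with most peaks held 78 of the 178. On chr11:4389616-7961067, the class I cluster and the class II genes that follow it, 16 genes had 20 peaks with a median fold of 7.35. OR52B4 had 3 of them, OR52J3 and OR56A4 had 2 each, and OR10A3 (fold 9.80), OR10A4 (9.32) and OR51A2 (7.35) had 1 each. The cluster on chr14:19377593-23103749 had 10 genes and 20 peaks with a median fold of 7.205, 4 of them at OR6J1 (6.54 to 8.17) and 2 each at OR10G2, OR11H2 and OR6S1. On chr11:57791352-59282385, 9 genes had 15 peaks with a median fold of 8.17, OR9Q1 and OR1S2 leading, with single peaks at OR10W1 (8.17), OR4D6 (5.72), OR4D9 (8.99) and OR5AN1 (6.54). On chr11:55135359-56431161, 12 genes had 13 peaks with a median fold of 7.35. OR4A15 and OR5M9 had 2 of these each, and OR5AR1 (8.99), OR5D14 (5.37), OR5F1 (8.17) and OR5J2 (8.17) 1 each. On chr19:8841315-9361719, 5 genes had 10 peaks: 4 at OR2Z1, 2 each at OR7D4 and OR7E24, and 1 each at OR1M1 and OR7G2. One OR2Z1 peak of this cluster had 77 tags and a fold of 4.16. Both of the receptor peaks that were also listed for a gene outside the family, ACTL9, lay here.

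On chromosome 1, receptor peaks had more tags and lower folds than over the whole family (14 tags and 7.09). The 17 peaks there had a median of 19 tags and a median fold of 5.71, against 16 tags and 6.71 for all peaks of the chromosome. The inferred background was a median of 1.627 times the genome-wide value in these receptor peaks, against 1.234 times for all peaks of chromosome 1. In the cluster at chr1:247615284-248845605, OR2B11 had 43 tags with a fold of 4.80, and OR2G2 31 tags with 4.64, the highest counts of the 9 peaks. The part of local background in these counts was not tested.

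Peak density was then compared without regard to the gene a peak was assigned to. Within 16 clusters of 3 or more listed receptor genes, 269 peaks lay in 17.94 Mb, or 15.0 per Mb (13.26 to 16.9), against 17.02 per Mb on the same chromosomes. The ends of these spans are set by genes that have a peak, so this density is not independent of the receptor peaks. Clusters were also taken from the order of all receptor genes in the gene table, a choice made after seeing the data. Each ran between the nearest listed genes of other families on either side. Listed genes are those with a peak, so a span runs on past genes without one, which can lower its density. The part of this in the values below was not tested. In 19 such clusters, with 326 receptor genes, 226 peaks lay in 23.95 Mb, or 9.437 per Mb (8.247 to 10.75), against 17.28 per Mb on their chromosomes, weighted by span. The density was lower than that of the chromosome in 16 of 19 clusters. In 6 of them the counting interval lay wholly below it, and in none above it. Clusters from gene order needed 5 or more receptor genes, which left out the densest cluster of the first set. That cluster, on chr5:180167058-180794287, had 21 peaks of any gene, or 33.48 per Mb, against 17.16 per Mb on chromosome 5. The widest cluster runs across the centromere of chromosome 11. Without it the density was 11.25 per Mb in the clusters, against 17.33 per Mb on their chromosomes, and without that cluster and chromosome 6 it was 12.12, against 17.55 per Mb.

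The receptor cluster of chromosome 6, beside the major histocompatibility complex, had the lowest density. Between ZSCAN12 and GABBR1, 14 receptor genes lay in 1.251 Mb with 2 peaks, 1.599 per Mb (0.194 to 5.78), against 15.0 per Mb on chromosome 6. Neither peak was assigned to a receptor gene. ZSCAN12 and GABBR1 are the nearest genes with a peak on either side, so the span can reach beyond the receptor genes. On chromosome 1, the 43 receptor genes between NLRP3 and SH3BP5L had 8.441 peaks per Mb, against 18.63. The class I cluster on chromosome 11, with 55 receptor genes between RRM1 and C11orf42, had 9.572 per Mb, against 17.18. The cluster on chromosome 19 between ACTL9 and ZNF177 had 28.59 per Mb, against 24.96, and its interval included the value of the chromosome. Of the 226 peaks in all 19 clusters, 132 were assigned to receptor genes.

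**Figure D4:**
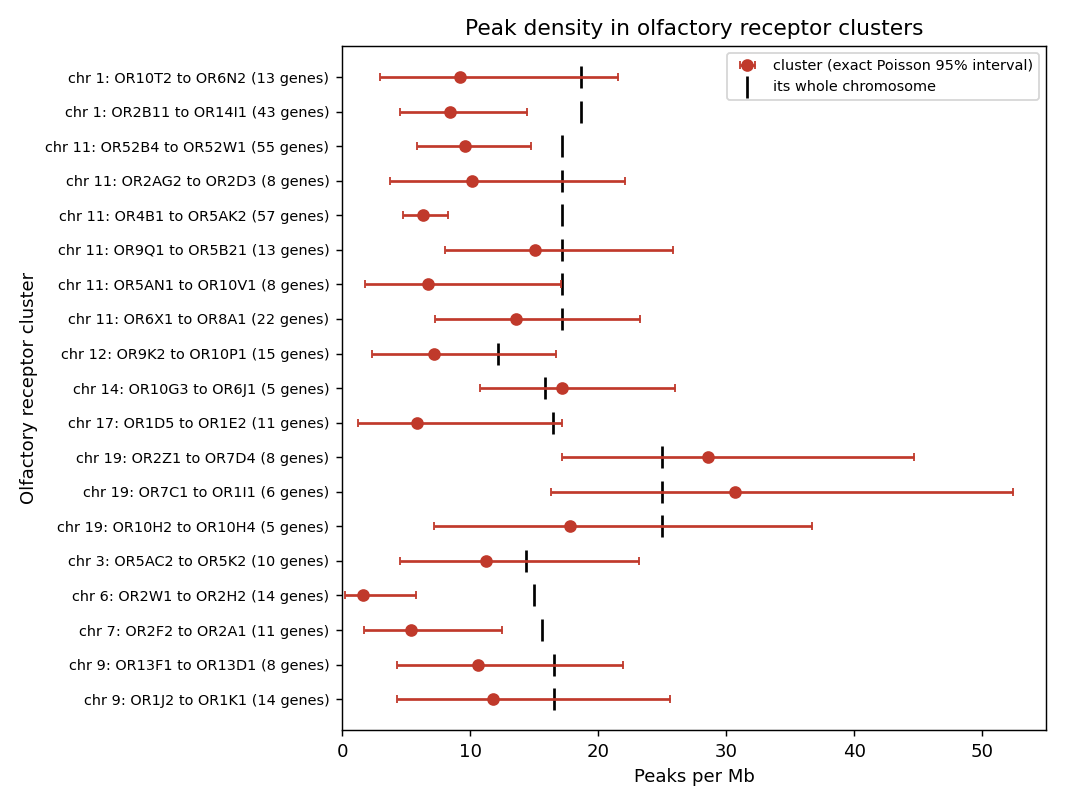
Peaks per Mb in each of 19 receptor clusters taken from gene order (red points, with exact Poisson 95% intervals) and on the whole chromosome (black ticks). Each cluster is bounded by the nearest genes of other families with a peak. The red point is left of the tick in 16 clusters, and the chromosome 6 cluster is lowest at 1.599 per Mb.

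By class, 12 of 55 class I genes (21.8%, 12.9 to 34.4%) and 106 of 335 class II genes (31.6%, 26.9 to 36.8%) had a peak, and the intervals overlapped. The class I genes with a promoter-class peak were OR51B6, OR52B4 and OR52E4. Among 6 receptors that have been described outside the nose, 3 had a peak (50.0%, 18.8 to 81.2%), an interval that holds both the 30.3% of all receptor genes and the 54.9% of all protein-coding genes. OR2AT4, a sandalwood receptor found in skin keratinocytes, had 2 peaks, of 14 tags each, with folds of 9.80 at 11.41 kb upstream and 7.35 at 52.36 kb downstream of its start. OR1D2, found in sperm, had 1 peak of 15 tags and a fold of 8.99 at 12.73 kb. OR10J5 had 1 of 18 tags and a fold of 6.42 at 41.84 kb. No peak was assigned to OR6A2, OR51E1 or OR51E2, and none of the 3 with a peak had it in the promoter class.

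The receptors on chromosome 9 were looked at for their position, after their values were seen. The reason was ABCA1, the cholesterol exporter that the study follows, which is the next gene with a peak after the OR13 genes. The OR13C9 peak at chr9:107413711-107414356 (16 tags, fold 7.35) was the receptor peak nearest to ABCA1. It lay 129 kb beyond the 3' end of the ABCA1 transcript, and no other peak was listed in the 341 kb between it and the peak assigned to ABCA1.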

How the data were processed

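The series holds 1 PAX-8 ChIP and 1 Input library of treated THP-1 cells. The authors deposited a list of peaks called against Input, in which each peak carries a tag count, a fold enrichment (a ratio), a p-value score, an FDR in percent and its distance to the nearest start site. Per the labels the ChIP was repeated once, and which run the list holds is not stated. FastQC and the build hg19 come from the submitters' processing notes. For the aligner, the peak caller and the sequencing depth, nothing was given in the sources used. The labels and the study's methods differ in the unit of the ox-LDL dose, so no dose is given.

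Rows with the same position were joined, so that 103443 rows gave 45360 peaks and 188 receptor rows gave 178. The score deposited by the authors was read as 10 times the negative log10 of a p-value, and the background was the Poisson mean that gives this p-value for the tag count. Symbols were matched to RefSeq genes (GRCh38.p14, names and order only) by accession (15628), symbol (58) or synonym (34), and 16 were not matched. Python 3.11.15, pandas 2.3.3, scipy 1.17.1 and matplotlib 3.10.9 were used. Only the background computation and the joining of start sites were run on simulated data. The simulated p-values came from the same Poisson formula and the simulated clusters were far apart. These runs check the code and not how the listed score was made.

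Named were receptor genes with a promoter-class, exon or intron peak, the 10 highest folds, the 5 genes with most peaks, up to 6 genes of each of the 5 clusters with most peaks, receptors described outside the nose and other groups' members with a promoter-class peak. The members and lists were chosen with earlier results of these data known. Alternatives were stricter fold and FDR limits, other distance limits, pseudogenes added, peaks merged within 1 kb and other cluster gaps. Peak sequences were not read, since no hg19 genome was used here.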

Additional observations from a re-analysis of the deposited data

How the results depend on the processing

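Of 33 alternatives, 20 kept the value within its counting interval or within 1.5 times the count, and 13 moved it. Some of the 20 could not move the value, as given below. The share of receptor genes with a peak was 11.79% with folds of at least 8 (55 peaks), against 33.4% of other protein-coding genes, 1.538% with folds of at least 10 (6 peaks), against 7.172%, and 22.31% within 20 kb, against 41.87%. The promoter-class share was 17.42% with a window of 5 kb. Tags over the inferred background, in place of the listed fold, had a median of 3.654. The density in clusters was 4.572 per Mb with folds of at least 8 (5.859 on the chromosomes). With clusters from gene order, added after seeing the data, it was 9.437 per Mb, or 10.9 without the longest gap, 11.25 without the widest cluster, 9.869 without chromosome 6 and 12.12 without both. No receptor peak lay on chromosomes 6 or 8, so leaving them out changed only the denominator of the gene share (31.72%). It could not move the median fold or the density of clusters joined by start sites. That density also stayed at 15.0 per Mb without the chromosome 11 peaks of 100 or more tags. The OR4C46 peaks of that size lie outside the counted spans. No paired analysis was possible because there was 1 ChIP and 1 Input library. With a median of 14 tags, single peaks are imprecise, and repeat libraries would be needed to say which would recur. A motif search in the peaks and a comparison with protein lengths were not run.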

Other observations

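Related gene groups gave other shares. Taste receptors, which like olfactory receptors are mostly single-exon G protein-coupled receptors, had a peak in 8 of 28 genes (28.6%, Wilson interval 15.3 to 47.1%), with a median fold of 6.54. A promoter-class peak was listed for 3 bitter taste receptors: TAS2R13 (13 tags, fold 6.54), TAS2R3 (11 tags, fold 8.99) and TAS2R39 (15 tags, fold 8.99). None of 3 vomeronasal receptors had a peak, which allows a share of up to 56.1%, and 2 of 6 trace amine receptors had one. Genes of olfactory signalling had a peak in 10 of 14 (71.4%, 45.4 to 88.3%), against 54.9% of all protein-coding genes. GNAL, the G protein of olfactory neurons, had 4 peaks, and ADCY3, their adenylyl cyclase, had 3. OMP, the marker of mature olfactory neurons, had a promoter-class peak of 17 tags and a fold of 7.35. It was the only 1 of the 14 with a promoter-class peak, against 13.4% of all protein-coding genes. No peak was assigned to CNGA2, CNGA4, RTP2 or RIC8B. Of 7 genes known from the choice of receptor genes in mouse, 3 had a peak (42.9%), against 54.9% of all protein-coding genes: EBF1 had 10 peaks, LHX2 had 5 and ATF5 had 1. None was assigned to KDM1A, LDB1, EMX2 or CBX5. Of 453 receptor pseudogenes in the gene table, 9 (1.99%) had a peak, and OR2M1P alone had one in the promoter class (16 tags, fold 11.44). How many pseudogenes the list's annotation held was not tested. GNAL, ADCY3, the signalling genes without a peak and the genes of receptor choice were named after their values were seen.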
